A study of Mus musculus with 26 samples.

Results

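The 10 genes described here encode the neuronal intermediate filaments Nefl, Nefm, Nefh, Ina and Prph, the growth-associated proteins Gap43 and Stmn2, the microtubule-associated proteins Map1b and Mapt, and the synuclein Sncg. They were picked by symbol, with earlier results of these data known, and all 10 were found among the 14580 genes of the deposited table. Their transcripts were read by RNA-seq in pools of intrinsically photosensitive retinal ganglion cells (ipRGCs), the melanopsin-expressing output neurons of the retina, and in pools of other, conventional ganglion cells (cRGCs) of the same mice. Retinas were dissociated, ganglion cells were enriched by the surface protein Thy1, and GFP-positive cells (ipRGC) were separated from GFP-negative cells (cRGC) by flow sorting. Opn4-GFP+/- mice, labelled as of BL6 background, carry GFP on a BAC transgene driven by the melanopsin gene and label mainly the M1 to M3 types. They were taken at postnatal day 4 to 6 (P5, 3 ipRGC and 3 cRGC libraries) and at postnatal day 27 to 33 (adult, 6 and 6 libraries). Opn4-Cre+/-;Z/EG+/- mice, labelled as of mixed background, also at postnatal day 27 to 33 (adult Opn4-Cre/GFP, 4 and 4 libraries), mark cells by Cre and so can label the M4 to M6 types too, although part of the cells of each type studied had no visible GFP. Each library is a pool of several mice, and a cRGC pool can hold ipRGCs without GFP. The paper's results section calls both lines mixed, unlike the labels. If the backgrounds differ, line and background cannot be told apart. The adult groups are called the GFP line and the Cre line from here on.

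Neurofilaments are polymers of a light (Nefl), a medium (Nefm) and a heavy (Nefh) chain, with alpha-internexin (Ina) as a further subunit in central neurons and peripherin (Prph) in peripheral neurons and a small number of central ones. They set the calibre of axons, and the heavy chain joins the polymer late, as axons mature. Gap43 is a membrane protein of growth cones, Stmn2 (SCG10) binds tubulin and favours turnover of microtubules in growing axons, and Map1b is the earliest microtubule-associated protein of extending axons. Mapt (tau) binds axonal microtubules, and Sncg (gamma-synuclein) is an abundant neuronal protein much used as a marker of retinal ganglion cells.

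Values are CPM, reads of a gene relative to the scaled library size, given with their SD where averaged. A gene was called different between groups at an adjusted p below 0.05 over all genes tested and a difference of more than 1 on the log2 scale (limma, Benjamini-Hochberg adjustment). Every adjusted p of a gene comes from limma unless another tool is named. Fold changes are on the log2(CPM + 1) scale, which understates the change of low genes. All 10 genes were listed at P5 and in the Cre line, and 9 of 10 in the GFP line, where Prph was not listed.

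The libraries held from 3927386 to 44871619 reads over listed genes (median 14857997). In 6 adult libraries, pools 2 and 4 of Opn4-GFP and pool 4 of the Cre line in both populations, 1169 to 2530 listed genes had no read, against at most 819 in the other 20. For several of the results below, the fit without these 6 is given too. The melanopsin gene Opn4 was at 1986 CPM or more in the ipRGC libraries of P5, 2915 in the GFP line and 820 in the Cre line, and at most at 55.7, 487 and 40.4 CPM in the cRGC libraries, so the labels held. The summed level of ganglion cell markers that are none of the 10 genes was lower in ipRGC than in cRGC libraries at P5, without overlap (4101 to 5170 CPM in ipRGC and 5590.3 to 5725 CPM in cRGC libraries, 15 of 15 listed, of which 4 were called lower in ipRGCs, with a median log2 fold change of -0.47). Among these markers, Pou4f1 ranged from 42.8 to 92.7 CPM in P5 ipRGC and from 547 to 828 CPM in P5 cRGC libraries. The paper reports it as repressed in P5 ipRGCs. The P5 sum therefore does not measure ganglion cell content alone. In adults the summed level was 3262 to 6695 CPM in ipRGC and 676 to 2768 CPM in cRGC libraries of Opn4-GFP, and 4211 to 4965 CPM against 1038 to 2754 CPM in the Cre line (14 of 15 listed in each). Sums over Müller glia markers went the other way in adults. All 16 of 16 listed markers were lower in ipRGCs of both lines, with sums of 771 to 1444 CPM in ipRGC and 13671 to 26447 CPM in cRGC libraries of Opn4-GFP, and 881 to 1584 CPM against 11605 to 48665 CPM in the Cre line. At P5 these sums were 484 to 705 CPM in ipRGC and 424 to 442 CPM in cRGC libraries (10 of 16 listed). Summed rod markers (4 of 10 listed) lay between 141 and 1308 CPM in the GFP line cRGC libraries and between 0.11 and 23.1 CPM in the ipRGC libraries. In the Cre line they lay between 210 and 953 CPM in cRGC and between 0.49 and 321 CPM in ipRGC libraries. Summed vascular markers lay between 678 and 1612 CPM in GFP line cRGC and between 0.31 and 35.5 CPM in ipRGC libraries (2 of 7 listed, both called lower in ipRGCs). They lay between 662 and 3361 CPM in Cre line cRGC and between 6.49 and 21.9 CPM in ipRGC libraries (3 of 7 listed, all 3 called lower). The paper describes vascular markers as essentially absent from the cRGC samples. The sums given here, over the few markers listed, differ from that description, and the reason was not tested. Summed amacrine markers (8 of 11 listed) were at 2925 ± 1499 CPM in cRGC and 1200 ± 285 CPM in ipRGC libraries of the GFP line, with 2 called lower in ipRGCs. They were at 1997 ± 1200 CPM in cRGC and 816 ± 230 CPM in ipRGC libraries of the Cre line, with 0 called. The part of the RNA of these other cells in the adult results was not tested. In such pools, fewer ganglion cells and less RNA of a gene per ganglion cell cannot be told apart.

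Exons of 3 of the 10 genes overlap those of a gene on the other strand, and whether reads were counted by strand is not given in the sources used here. Nefl (chromosome 14, 68701920 to 68707152, plus strand) and Nefm (68700647 to 68742903, minus strand) share 1108 bases, which is 32.8% of the exons of Nefl and 19.2% of those of Nefm in mm9. Ina (chromosome 19, 47089188 to 47099817) shares 456 bases, 14.1% of its exons, with Nt5c2. If strand was not used, reads over these bases cannot be assigned with certainty, and how they were then counted is not given.

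At P5 none of the 10 genes was called different between ipRGCs and cRGCs, where 4.20% of the 13677 genes tested were called in either direction. The median log2 fold change of the 10 was 0.07, beside 0.00 over all genes. The light chain Nefl was at 1284, 2544 and 1624 CPM in the 3 ipRGC libraries and at 2219, 2118 and 1630.3 CPM in the 3 cRGC libraries. These ranges overlap, and the difference (log2 fold change -0.18, SE 0.27, adjusted p = 0.90) was smaller than the spread. The medium chain Nefm was at 567, 1606 and 525 CPM against 1251, 1375 and 704 CPM (log2 fold change -0.45, SE 0.36). The ipRGC library of pool 2 held the highest Nefl, Nefm, Nefh and Ina of its group. Ina was at 898, 1336 and 1155 CPM in ipRGC and 1570.1, 1449 and 1174 CPM in cRGC libraries (log2 fold change -0.31, SE 0.23).

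The heavy chain Nefh was the filament gene with the largest difference at P5. It was at 39.8, 99.1 and 37.7 CPM in ipRGC and at 25.2, 28.7 and 21.5 CPM in cRGC libraries. Every ipRGC library lay above every cRGC library, as was so for 8.85% of all genes. The log2 fold change was 1.06 (SE 0.34) with an adjusted p of 0.11, so it was not called. With the pool number as a block the same difference had an adjusted p of 0.018. With DESeq2 it was 1.23 (adjusted p = 0.022), and over all 13 alternatives the adjusted p ranged from 0.018 to 0.48.

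None of the growth genes passed the test at P5, which does not show that their levels were alike. Gap43 was at 804, 1036 and 905 CPM in ipRGC and 963, 981 and 759 CPM in cRGC libraries (log2 fold change 0.02, SE 0.21). Stmn2 was at 1589, 1541 and 1507 CPM in ipRGC and 1461, 1347 and 1216 CPM in cRGC libraries, with no overlap between the groups (log2 fold change 0.21, SE 0.21, adjusted p = 0.82). Stmn2 and Nefh were the 2 of 10 genes whose P5 ranges did not overlap. Map1b, the highest of the 10 in CPM, was at 14417, 15261 and 12932 CPM against 13900.4, 13423 and 7779 CPM, higher in ipRGCs in all 3 pools (log2 fold change 0.32, SE 0.34). Mapt was at 1245, 1598 and 1407 CPM against 1307, 1509 and 1138 CPM (log2 fold change 0.11, SE 0.22). Sncg was at 293, 441 and 305 CPM against 374, 493 and 388 CPM (log2 fold change -0.29, SE 0.22, adjusted p = 0.72). Prph was close to the limit of listing, at 0.58, 2.56 and 1.57 CPM against 0.35, 1.60 and 0.43 CPM (log2 fold change 0.51, SE 0.49).

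**Figure D1:**
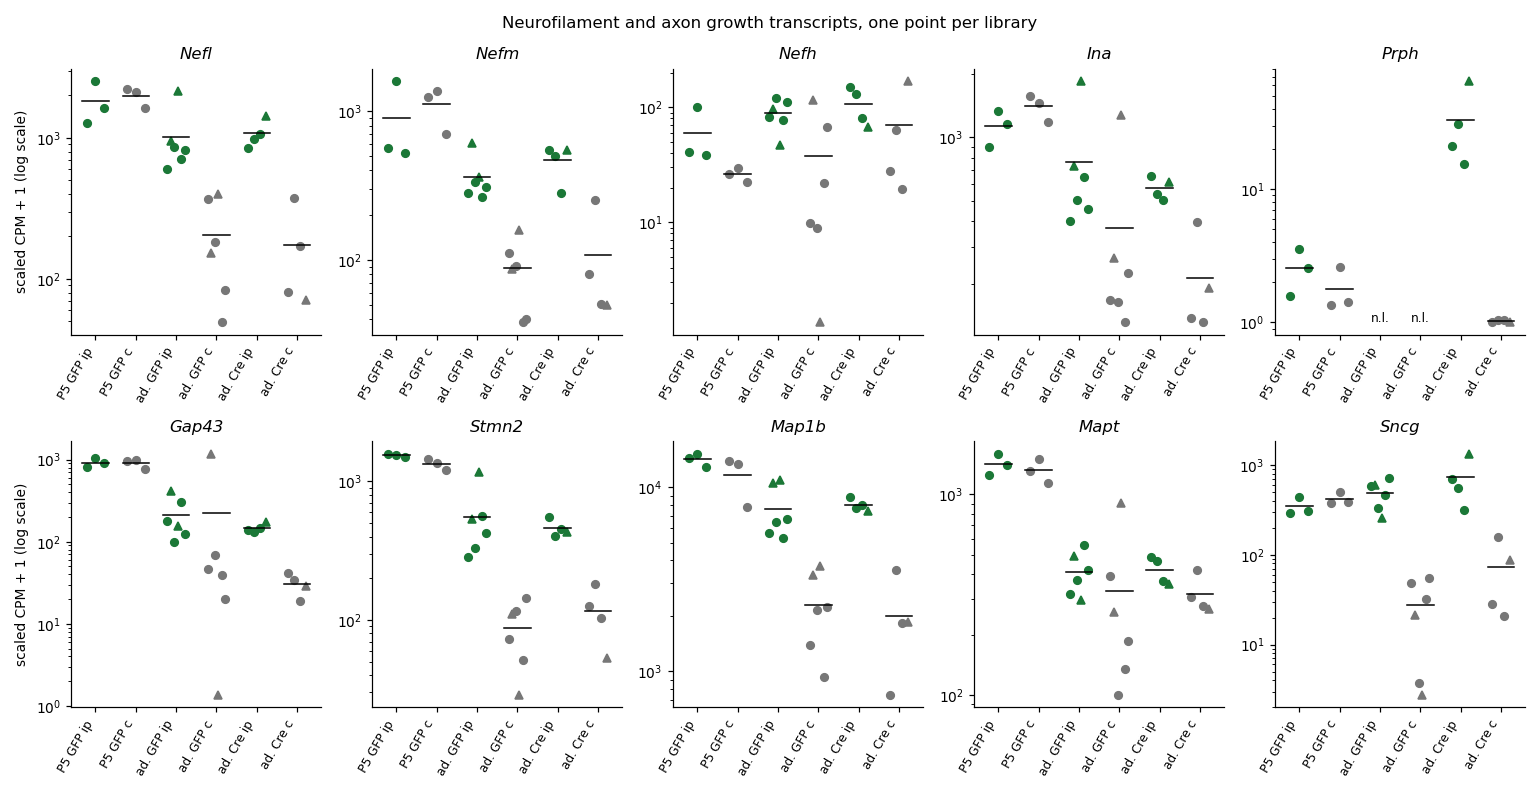
Scaled CPM plus 1 (log scale) of each of the 10 genes in every library, in 6 groups (P5 Opn4-GFP, the GFP line, the Cre line, each as ipRGC in green and cRGC in grey). Bars are group means, triangles are the 6 libraries with over 1000 listed genes without a read, and n.l. marks a gene not listed. The P5 groups overlap for 8 of 10 genes. All adult ipRGC libraries lie above the cRGC libraries for 5 of 9 genes in the GFP line and 8 of 10 in the Cre line, for Sncg at 1.72 to 54.7 against 256 to 720 CPM in the GFP line.

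In the GFP line, 5 of the 9 listed genes were higher in ipRGCs (Nefl, Nefm, Stmn2, Map1b and Sncg) and none was lower, where 1.76% of the 11587 genes tested were called higher and 3.39% lower. The median log2 fold change was 2.24 for the 9 genes and 0.06 for all genes. The ranges of 5 of 9 genes did not overlap, ipRGC above cRGC, as was so for 1.40% of all genes. These were the same 5 genes. In the Cre line, 8 of 10 were higher in ipRGCs (the same 5 with Ina, Prph and Gap43) and none was lower, where 1.97% of 13357 genes were called higher and 3.47% lower. The median was 2.26 for the 10 genes and 0.03 for all genes. The ranges of these 8 did not overlap, as was so for 5.49% of all genes. Among them, Prph was listed in this line through its ipRGC libraries alone, so its call and its lack of overlap are no independent support. Neither Nefh nor Mapt was called in either adult line in the main fit. Without the libraries in which many listed genes had no read, 8 of the 9 genes were called in the GFP line. Nefh, Ina and Gap43 were then called too, and Mapt was not.

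Nefl in the GFP line ranged from 600.1 through a median of 839 to 2147 CPM in ipRGC libraries and from 48.0 through 167 to 398 CPM in cRGC libraries. The lowest ipRGC library thus lay above the highest cRGC library. The log2 fold change was 2.53 (SE 0.48, 5.78-fold, adjusted p = 0.0013). Its levels in the Cre line were 844, 976, 1055 and 1430.4 CPM in ipRGC and at 79.2, 376, 169 and 69.9 CPM in cRGC libraries, again without overlap (log2 fold change 2.94, SE 0.48, 7.65-fold, adjusted p = 0.0017). Nefm, whose exons share bases with Nefl, ranged from 263 through 320 to 615 CPM in the GFP line ipRGC and from 36.8 through 87.3 to 158 CPM in cRGC libraries (log2 fold change 2.17, SE 0.47, 4.49-fold, adjusted p = 0.0049). The Cre line gave 546, 502, 281 and 543 CPM against 79.4, 252, 49.0 and 48.6 CPM (log2 fold change 2.43, SE 0.51, 5.38-fold, adjusted p = 0.0094). Without the 6 adult libraries rich in genes without reads, Nefl and Nefm of Opn4-GFP were still called, while Nefm of the Cre line had a log2 fold change of 2.08 with an adjusted p of 0.063, and 2.12 with an adjusted p of 0.068 under edgeR's quasi-likelihood test. Without the adult libraries recorded with a single sequencing run, Nefl of Opn4-GFP was at 2.01 (adjusted p = 0.058) and Nefm at 1.81 (adjusted p = 0.17).

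Nefh, the heavy chain, was more uneven. It ranged from 46.2 through 88.5 to 119 CPM in the GFP line ipRGC libraries, and from 0.34 through 14.9 to 116 CPM in cRGC libraries, where pools 2 and 6 held 116 and 66.1 CPM and pool 4 held 0.34 CPM. The log2 fold change was 2.37 (SE 0.87, adjusted p = 0.13). Without cRGC pool 2 it was 2.93 (adjusted p = 0.037). Nefh was also called in this line without the libraries rich in genes without reads. Over the 21 alternatives the adjusted p ranged from 0.036 to 0.62. Nefh in the Cre line was at 150.1, 128, 80.2 and 66.0 CPM in ipRGC and at 27.1, 62.1, 18.3 and 169 CPM in cRGC libraries, with cRGC pool 4 the highest of all 8 (log2 fold change 1.05, SE 0.63, adjusted p = 0.44).

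Ina ranged from 397 through 575 to 1853 CPM in the GFP line ipRGC and from 131 through 197 to 1269 CPM in cRGC libraries. Pool 4 was the highest of both populations, so the ranges overlap (log2 fold change 1.36, SE 0.50, adjusted p = 0.13). With the pool number as a block its adjusted p was 0.024, and without cRGC pool 4 the log2 fold change was 1.82 (adjusted p = 0.0063). Ina was also called in this line without the libraries rich in genes without reads. Over the 21 alternatives the adjusted p of Ina ranged from 0.0063 to 0.75. Ina in the Cre line was at 653, 536, 503 and 611 CPM against 138, 396, 131 and 192 CPM (log2 fold change 1.57, SE 0.39, 2.96-fold, adjusted p = 0.029). That call was lost without any 1 of 6 of the 8 libraries, the exceptions being cRGC pools 2 and 4, with log2 fold changes between 1.38 and 1.63 and adjusted p between 0.060 and 0.097. It was also lost under edgeR's quasi-likelihood test (1.43, adjusted p = 0.099), relative to ganglion cell markers (-0.0060), and without pool 4, the pool of this line with a single run and with many genes without reads (1.53, adjusted p = 0.086). Over the 17 alternatives the adjusted p ranged from 0.0047 to 0.99.

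Prph set the Cre line ipRGCs apart from every other group in which it was listed. It was at 20.1, 29.7, 14.5 and 64.2 CPM in ipRGC libraries, from 826, 1426, 449 and 627 reads, and at 0, 0.048, 0.038 and 0 CPM in cRGC libraries, from 0, 2, 1 and 0 reads. The log2 fold change was 4.80 (SE 0.75, adjusted p = 0.0012). Prph met the listing limit of 1 CPM in this line through its ipRGC libraries alone. Its p and its lack of overlap are therefore no independent support for the difference. On the linear scale the pooled level was 25.7 CPM in ipRGC (3328 reads) and 0.028 CPM in cRGC libraries (3 reads), a ratio of 933 with an exact 95% interval of 319 to 4524 that covers counting error only. At P5 the highest Prph level of any library was 2.56 CPM. In the GFP line the gene was not listed, so its level there was not analysed here and the lines cannot be compared for it.

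The 250 bases before the RefSeq start of Prph (GRCm38.p6, chr15:99054924-99055173, plus strand) and of Sncg (chr14:34374670-34374919, minus strand), the genes with the largest adult differences, are printed 5′ to 3′, with matches to 3 motifs in capitals.
Prph: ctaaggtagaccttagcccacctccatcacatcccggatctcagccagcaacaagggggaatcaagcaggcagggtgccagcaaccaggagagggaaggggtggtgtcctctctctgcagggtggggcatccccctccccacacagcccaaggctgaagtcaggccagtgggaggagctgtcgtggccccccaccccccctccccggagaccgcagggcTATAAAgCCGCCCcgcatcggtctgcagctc
Sncg: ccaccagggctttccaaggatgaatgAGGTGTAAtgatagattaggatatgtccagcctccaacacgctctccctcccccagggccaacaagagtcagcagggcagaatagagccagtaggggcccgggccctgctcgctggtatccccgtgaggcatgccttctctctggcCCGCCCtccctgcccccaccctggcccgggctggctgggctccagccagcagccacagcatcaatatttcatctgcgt
The motifs searched on both strands were the TATA box TATAAA, the T-box element AGGTGTNA bound by factors such as Eomes, and the GC box CCGCCC. Prph has TATAAA beginning 31 bases and CCGCCC beginning 24 bases before the start. Sncg has AGGTGTNA 224 bases and CCGCCC 78 bases before the start and no TATAAA in this window. Among 32851 promoter windows of the same length, 12.4% hold TATAAA, 2.68% AGGTGTNA and 32.7% CCGCCC on either strand. RefSeq promoters were matched for 4 of the 10 genes (Prph, Sncg, Ina and Map1b). A match is a run of letters and not a measured site.

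Gap43 ranged from 98.8 through 165 to 409 CPM in the GFP line ipRGC libraries and from 0.34 through 42.0 to 1184 CPM in cRGC libraries. One cRGC library, pool 2, was above all ipRGC libraries, and pool 4 was at 0.34 CPM. The log2 fold change was 2.24 (SE 0.98, adjusted p = 0.23), and without cRGC pool 2 it was 3.21 (adjusted p = 0.017). Gap43 was also called in this line without the libraries rich in genes without reads. With edgeR's quasi-likelihood test the sign turned (-0.10, adjusted p = 0.99), and over the 21 alternatives the adjusted p ranged from 0.017 to 0.99. Gap43 in the Cre line was at 139, 131, 145 and 172 CPM in ipRGC and at 40.3, 33.0, 17.7 and 28.0 CPM in cRGC libraries (log2 fold change 2.31, SE 0.46, 4.98-fold, adjusted p = 0.0063). Here the groups were well apart, and the SD of the ipRGC group was 17.6 CPM (n = 4).

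Stmn2 ranged from 283 through 477 to 1174 CPM in the GFP line ipRGC and from 27.6 through 91.1 to 144 CPM in cRGC libraries (log2 fold change 2.68, SE 0.49, 6.42-fold, adjusted p = 0.00084). Cre line levels were 551, 405, 456 and 428 CPM against 126, 182, 103 and 51.8 CPM (log2 fold change 2.11, SE 0.41, 4.31-fold, adjusted p = 0.0061). No library of either line broke the order.

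Map1b remained the highest of the 10 genes in CPM in adults. It ranged from 5286 through 6594 to 10998 CPM in the GFP line ipRGC and from 925 through 2189 to 3709 CPM in cRGC libraries (log2 fold change 1.82, SE 0.30, 3.54-fold, adjusted p = 0.00032). Its Cre line levels were 8811, 7683, 8036 and 7435 CPM against 737, 3540.5, 1834 and 1845 CPM (log2 fold change 2.21, SE 0.40, 4.62-fold, adjusted p = 0.0039). Mapt, in contrast, overlapped in both lines. It ranged from 296 through 395 to 561 CPM in the GFP line ipRGC and from 98.5 through 222 to 905 CPM in cRGC libraries (log2 fold change 0.69, SE 0.47, adjusted p = 0.51). The Cre line held 489, 462, 368 and 359 CPM against 308, 418, 277 and 268 CPM (log2 fold change 0.41, SE 0.33, adjusted p = 0.60).

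Sncg had the largest difference of the 9 genes listed in both adult lines. It ranged from 256 through 517 to 720 CPM in the GFP line ipRGC and from 1.72 through 25.7 to 54.7 CPM in cRGC libraries. No library of either group came near the other group, and the log2 fold change was 4.83 (SE 0.71, 28.4-fold, adjusted p = 7.4e-05). Its level in the Cre line was 695, 551, 316 and 1339 CPM against 27.4, 158, 19.6 and 85.6 CPM (log2 fold change 3.58, SE 0.61, 11.9-fold, adjusted p = 0.0026). It was called in all 21 and all 17 alternatives of these comparisons, with adjusted p of at most 0.0050 and 0.022. The paper names Sncg among ganglion cell markers that were lower in the adult cRGC pools. It proposes contamination by other cells as a possible reason, which was not tested here.

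**Figure D2:**
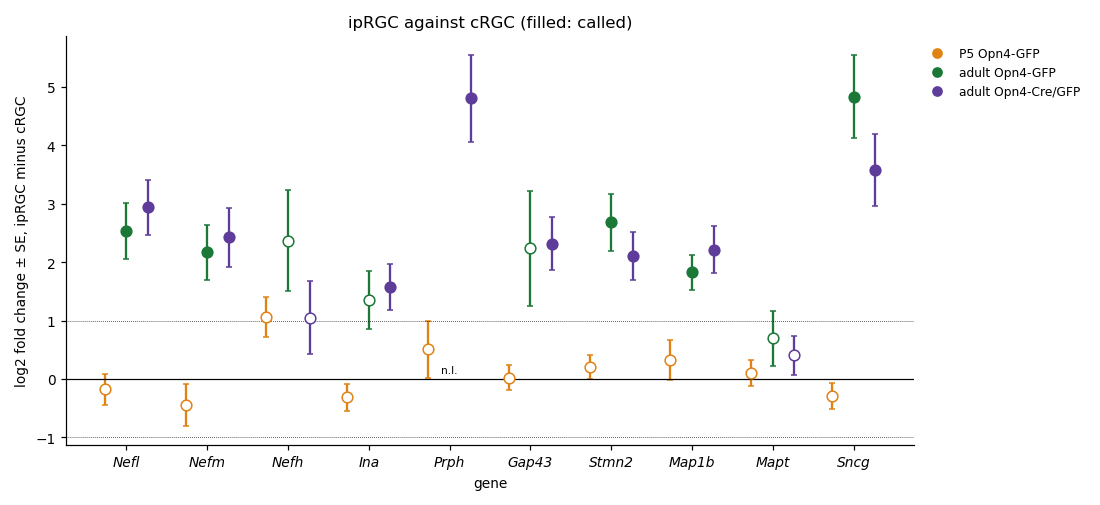
Log2 fold change of ipRGC against cRGC libraries with its SE (y axis) for the 10 genes (x axis) at P5, in the GFP line and in the Cre line. Filled points were called and dotted lines mark differences of 1. P5 values lie between -0.45 and 1.06 with none called, while 5 of 9 and 8 of 10 adult values were called, all higher.

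Each comparison was also run with each library's values divided by its summed ganglion cell markers. This scaling moved the median over all genes to -1.47 in the GFP line, -1.54 in the Cre line and 0.31 at P5, so differences are then relative to ganglion cell markers and not to all RNA. In the GFP line, Sncg alone of the 9 genes was then called (log2 fold change 3.29, SE 0.82, adjusted p = 0.0049), where 2678 of 11587 genes were called in either direction. Nefl was at 0.99 (adjusted p = 0.077), Nefm at 0.63, Stmn2 at 1.15 (adjusted p = 0.11) and Map1b at 0.29 (adjusted p = 0.20). Ina was at -0.18 and Mapt at -0.84 (adjusted p = 0.17), so their sign turned. In the Cre line, Nefl (1.36, adjusted p = 0.034), Prph (3.23, adjusted p = 0.0098) and Sncg (2.0, adjusted p = 0.011) were higher in ipRGCs by this measure. Prph was listed in this line through its ipRGC libraries alone, so its call here is no independent support either. Mapt was lower (-1.17, SE 0.43, adjusted p = 0.041), though above the median of -1.54 over all genes. The other 6 were not called, where 4492 of 13357 genes were called in either direction. At P5, Nefh was called by this measure (1.37, SE 0.36, adjusted p = 0.027), as the only gene of the 10, where 667 of 13677 genes were called in either direction. The P5 marker sum includes Pou4f1, which was low in ipRGCs. The part of Pou4f1 in this P5 call of Nefh was not tested. The 14 listed ganglion cell markers had a median log2 fold change of 1.98 in the GFP line and 2.31 in the Cre line before scaling, beside 2.24 and 2.26 for the cytoskeletal genes.

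**Figure D3:**
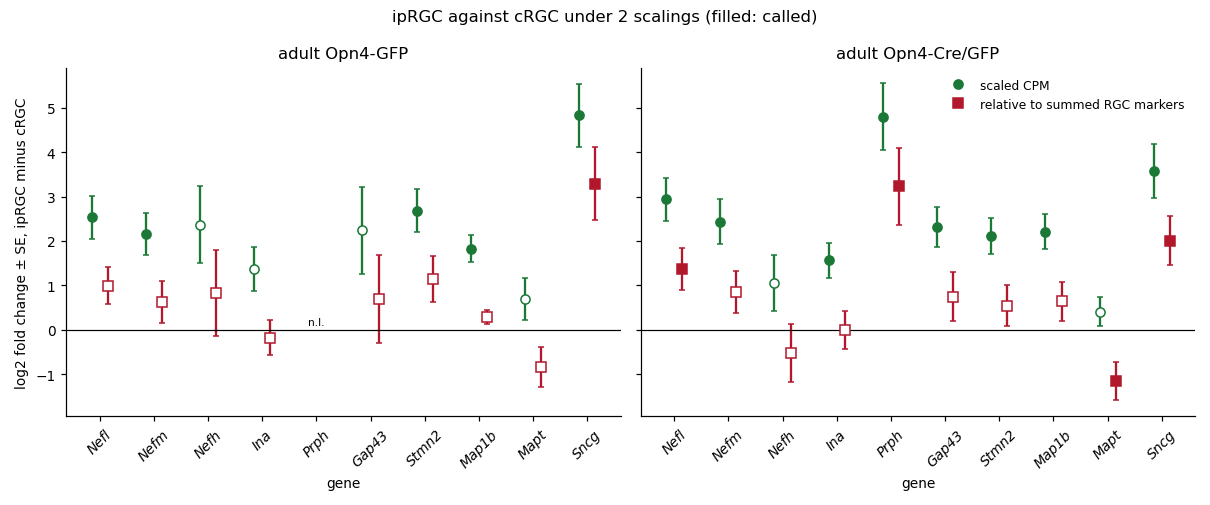
Log2 fold change of ipRGC against cRGC libraries with its SE (y axis) for the 10 genes (x axis), from scaled CPM (circles) and relative to summed ganglion cell markers (squares). Sncg moves from 4.83 to 3.29 and Map1b from 1.82 to 0.29 in the GFP line, while Mapt moves from 0.41 to -1.17 in the Cre line.

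Maturation was measured in Opn4-GFP mice from P5 to adult, on reads of both ages scaled together, so that the values differ somewhat from those above. The P5 libraries are the same in the tests of each population's own change and of their difference. In ipRGCs, none of the 9 genes tested was called changed, where 1.14% of 11236 genes were called in either direction by limma. The median log2 fold change was -0.82 for the 9 genes and -0.24 for all genes. Of the 9 genes, 4 (Nefm, Stmn2, Map1b and Mapt) had an unadjusted p below 0.05, as had 952 of all genes, and neither edgeR's quasi-likelihood test nor DESeq2 called any of the 9. In cRGCs, 8 of 9 were lower in adults, where 2.88% of genes were called lower. The median was -3.52 for the 9 genes and -0.34 for all genes. The exception was Nefh.

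Nefl was at 1246, 1535 and 2411 jointly scaled CPM in P5 ipRGCs and ranged from 689 through 902 to 2167 CPM in adult ipRGCs (log2 fold change -0.78, SE 0.50, adjusted p = 0.76). In cRGCs it was at 1593, 2014 and 2061 CPM at P5 and ranged from 49.0 through 169 to 397 CPM in adults (log2 fold change -3.52, SE 0.50, 11.5-fold lower, adjusted p = 4.7e-05). Nefm had a log2 fold change of -1.04 (SE 0.47, adjusted p = 0.54) in ipRGCs and fell by 3.69 (SE 0.47, adjusted p = 1.1e-05) on the log2 scale in cRGCs. Nefh was at 35.7, 38.7 and 93.9 CPM in P5 and from 46.7 through 95.7 to 132 CPM in adult ipRGCs (log2 fold change 0.80, SE 0.95, adjusted p = 0.92). In cRGCs it was at 21.0, 23.4 and 27.3 CPM and from 0.33 through 15.5 to 118 CPM (log2 fold change -0.55, SE 0.95, adjusted p = 0.83). Its sign in cRGCs turned without cRGC pool 4 (0.19) and under DESeq2 (0.66). Ina had a log2 fold change of -0.62 (SE 0.51, adjusted p = 0.85) in ipRGCs and fell by 2.33 (SE 0.51, adjusted p = 0.0048) on the log2 scale in cRGCs, a call not kept by edgeR's quasi-likelihood test (-1.85, adjusted p = 0.076), DESeq2 (-1.78, adjusted p = 0.057) or scaling to ganglion cell markers (-0.57).

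Gap43 was at 781, 855 and 982 CPM in P5 ipRGCs and from 110 through 179 to 419 CPM in adult ipRGCs, so the ages did not overlap. In ipRGCs this also held for Stmn2, Map1b and Mapt. The share over all genes was not counted, so this lack of overlap is no result about these genes. The Gap43 log2 fold change of -2.14 (SE 1.09) had an adjusted p of 0.63 in the fit over all 4 groups, whose shared spread includes the cRGC libraries at 0.33 and 1212 CPM. Fitted on the ipRGC groups alone, the log2 fold change was -2.12 with an adjusted p of 0.013. Without the libraries rich in genes without reads it was -2.31 (adjusted p = 0.0017), and over the 28 alternatives the adjusted p ranged from 0.0017 to 1.0. Stmn2 was at 1425, 1460.0 and 1543 CPM in P5 and from 324 through 492 to 1186 CPM in adult ipRGCs (log2 fold change -1.51, SE 0.46, adjusted p = 0.14). It was called without ipRGC pool 4 (-1.75, adjusted p = 0.046), without cRGC pool 4 (-1.51, adjusted p = 0.035) and without the libraries rich in genes without reads (-1.81, adjusted p = 0.0026), in a range of 0.0026 to 0.54 over the 28 alternatives. In cRGCs, Stmn2 fell by 4.02 (SE 0.46, 16.3-fold, adjusted p = 2.0e-06) on the log2 scale. Gap43 fell by 4.38 (SE 1.09, adjusted p = 0.013) in cRGCs. That call was lost without any 1 of the 3 P5 cRGC libraries (adjusted p 0.053 to 0.068), under edgeR's quasi-likelihood test (-1.89, adjusted p = 0.48), relative to ganglion cell markers (-2.62, adjusted p = 0.087), without the single-run libraries (-4.13, adjusted p = 0.068) and with the cRGC groups alone (adjusted p = 0.070). DESeq2 gave a log2 fold change of -1.91 and no adjusted p for it. Without adult cRGC pool 2 the value was -5.36, and without pool 4 it was -3.40.

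Map1b was at 12226, 13999 and 14463 CPM in P5 and from 5325 through 7077 to 11102 CPM in adult ipRGCs (log2 fold change -0.82, SE 0.33, adjusted p = 0.40), and fell by 2.36 (SE 0.33, adjusted p = 3.2e-05) in cRGCs. Mapt was at 1209, 1330.0 and 1514 CPM in P5 and from 299 through 424 to 565 CPM in adult ipRGCs, without overlap. Its log2 fold change of -1.67 (SE 0.47) had an adjusted p of 0.090, and it was called without cRGC pool 4 (-1.67, adjusted p = 0.013), with the ipRGC groups alone (-1.66, adjusted p = 0.0067), without the scaling between libraries (-1.70, adjusted p = 0.049) and relative to ganglion cell markers (-1.78, adjusted p = 0.050), in a range of 0.0067 to 0.44 over the 28 alternatives. In cRGCs Mapt fell by 2.30 (SE 0.47, adjusted p = 0.0023). Sncg was the gene of the 9 whose 2 populations went furthest apart with age. It was at 285, 289 and 417 CPM in P5 and from 258 through 541 to 747 CPM in adult ipRGCs (log2 fold change 0.58, SE 0.75, adjusted p = 0.92). In cRGCs it was at 348, 379 and 469 CPM at P5 and from 1.66 through 26.3 to 56.8 CPM in adults (log2 fold change -4.57, SE 0.75, 23.8-fold lower, adjusted p = 0.00023). Fewer ganglion cells in the adult cRGC pools and less Sncg RNA per ganglion cell cannot be told apart.

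Without the libraries rich in genes without reads, 3 of the 9 genes were lower in adult ipRGCs, namely Gap43, Stmn2 and Mapt (-1.60, adjusted p = 0.012). In that setting 417 of 11236 genes were called in either direction, against 128 in the main fit. Relative to ganglion cell markers, which moved the median over all genes to 1.42 in cRGCs, 4 of the 8 calls in cRGCs remained: Nefl (-1.76, adjusted p = 0.0026), Nefm (-1.92, adjusted p = 0.0024), Stmn2 (-2.26, adjusted p = 0.0014) and Sncg (-2.80, adjusted p = 0.021). By this measure 2569 of 11236 genes were called in cRGCs in either direction. The Müller glia marker sums given above were higher in the adult than in the P5 cRGC pools, though over 16 listed markers in adults and 10 at P5. Of the 10 such markers tested, 9 were called higher in adult cRGCs, against 1 higher and 1 lower in ipRGCs. Amacrine markers were called higher with age in both populations, 6 of 6 tested in ipRGCs (median log2 fold change 4.57) and 6 of 6 in cRGCs (5.63). Their summed level in ipRGCs was 53.8 ± 15.4 CPM at P5 (7 of 11 listed) and 1200 ± 285 CPM in adults (8 of 11 listed). These sums cover unlike sets of markers, and each age was scaled on its own for them. The part of either marker list in the change of these genes with age was not tested.

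**Figure D4:**
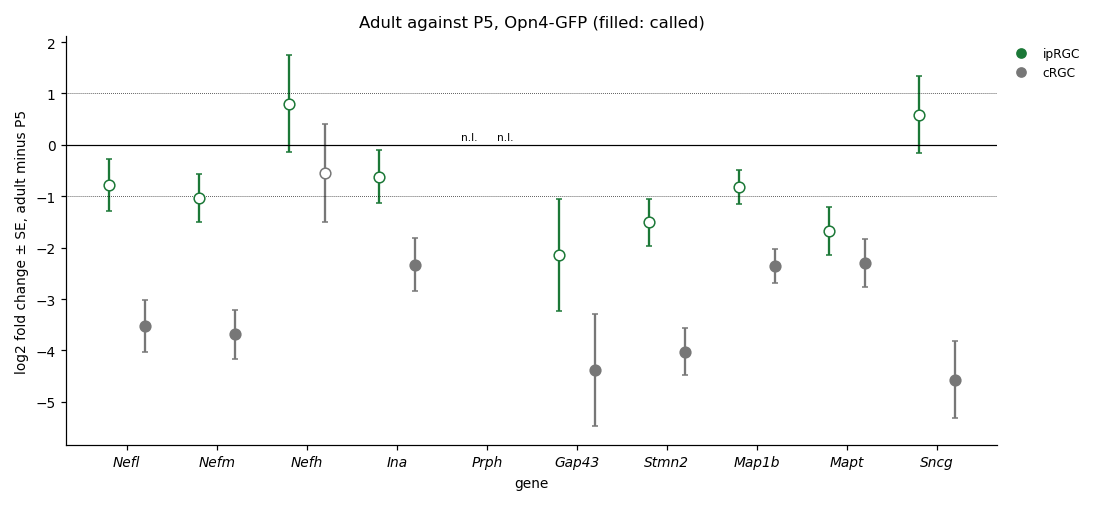
Log2 fold change of adult against P5 Opn4-GFP libraries with its SE (y axis) for ipRGC and cRGC pools, for the 9 genes tested in both ages (Prph was not listed in the adult). Filled points were called. In ipRGCs values lie between -2.14 and 0.80 with none called, and in cRGCs 8 of 9 were called lower, down to -4.57 for Sncg.

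Whether the difference between ipRGCs and cRGCs itself grew with age was tested as an interaction. Sncg was called (5.15 on the log2 scale, SE 1.06, adjusted p = 0.015), the only gene of the 9, where 0.125% of genes were called in this direction. That call was lost under edgeR's quasi-likelihood test (4.51, adjusted p = 0.076), relative to ganglion cell markers (3.28, adjusted p = 0.11) and without any 1 of 4 of the 6 P5 libraries (ipRGC pools 1 and 3 and cRGC pools 1 and 2, 5.03 to 5.25, adjusted p 0.052 to 0.074). Nefl (2.75, SE 0.71, adjusted p = 0.074), Nefm (2.65, SE 0.67, adjusted p = 0.059) and Stmn2 (2.52, SE 0.65, adjusted p = 0.073) were near the threshold, and Map1b was at 1.54 (SE 0.46, adjusted p = 0.18). With the pool number as a block 4 genes were called: Sncg, Nefl (adjusted p = 0.046), Nefm (adjusted p = 0.046) and Map1b (adjusted p = 0.0070). Without the libraries rich in genes without reads 6 were called. Over all 11236 genes the block called 72 and this last setting 291 in either direction, against 89 in the main fit. Over their 27 alternatives the adjusted p ranged from 0.019 to 0.35 for Nefl, 0.016 to 0.44 for Nefm, 0.028 to 0.55 for Stmn2 and 0.0070 to 0.57 for Map1b. Ina was at 1.71, Gap43 at 2.25, Nefh at 1.35 and Mapt at 0.63, none called.

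Between the adult lines no gene of the 11441 tested was called by limma, either in ipRGCs (257 at an unadjusted p below 0.05) or in the difference between ipRGCs and cRGCs (272 at an unadjusted p below 0.05). DESeq2 called 13 and 6 genes and edgeR's quasi-likelihood test 0 and 0, none of them among the 9 genes listed in both lines. In ipRGCs their log2 fold changes of the Cre line against the GFP line lay between -0.55 (Gap43, SE 0.98) and 0.25 (Sncg, SE 0.74). Nefl was at -0.01 (SE 0.52), Map1b at -0.07 (SE 0.35) and Nefh at 0.05 (SE 0.87). The line differences in ipRGC minus cRGC lay between -1.40 (Nefh, SE 1.23) and 0.34 (Nefl, SE 0.73). A p that misses the threshold does not show that the lines are alike, and the SEs in ipRGCs lay between 0.35 and 0.98.

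Levels of different genes were set side by side, roughly, per kilobase of all annotated exons. The shared exon bases of Nefl, Nefm and Ina count in full in this length, and their part in the order was not tested. By this measure Map1b led in P5 ipRGCs at 1177 ± 97.7 CPM per kb (SD, n = 3), followed by Stmn2 (812 ± 21.7), Gap43 (601 ± 76.4), Nefl (538 ± 193), Sncg (407 ± 96.0) and Ina (349 ± 67.9). Mapt (188 ± 23.5) and Nefm (156 ± 106) were lower, and Nefh (14.7 ± 8.72) and Prph (0.84) were lowest. The levels of Gap43 and Nefl, and of Sncg and Ina, were within their SDs of each other. In the GFP line ipRGCs Map1b (630 ± 207) and Sncg (576 ± 206 CPM per kb, n = 6) were within their spread at the head. Nefl (300.0 ± 168), Stmn2 (290 ± 170) and Ina (236 ± 169) came next and overlapped, then Gap43 (139 ± 78.8), Nefm (62.2 ± 22.4), Mapt (54.4 ± 13.6) and Nefh (22.1 ± 6.51). In the Cre line ipRGCs Sncg (852 ± 514 CPM per kb, n = 4) and Map1b (662 ± 49.7) again led, with Prph (17.2 ± 11.9) below Nefh (26.6 ± 9.93). Stmn2 and Gap43, next after Map1b at P5, thus stood below Sncg in both adult lines.

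A ratio of 2 genes within a library does not move with its scaling, but 1 read was added to each gene, so that it depends on depth where reads are few, as in cRGC pool 4 of the GFP line. The log2 ratio of Nefh to Nefl reads was -5.04 ± 0.37 in P5 ipRGCs and -6.30 ± 0.14 in P5 cRGCs (difference 1.26, exact permutation p = 0.10, the smallest that 3 against 3 libraries can give, adjusted p = 0.33 over 10 ratio tests). In the GFP line the ratio was -3.45 ± 1.04 in ipRGCs and -3.59 ± 3.71 in cRGCs (difference 0.14, exact permutation p = 0.97). In the Cre line it was -3.39 ± 0.86 in ipRGCs and -1.52 ± 1.98 in cRGCs (difference -1.87, exact permutation p = 0.14, adjusted p = 0.36). From P5 to adult the ratio differed by 1.59 in Opn4-GFP ipRGCs (exact permutation p = 0.095, adjusted p = 0.33). In Opn4-GFP cRGCs it differed by 2.71 (exact permutation p = 0.26, adjusted p = 0.52). The ratio of Gap43 to Nefl was -0.94 ± 0.32 in P5 and -2.31 ± 1.07 in the GFP line ipRGCs (difference -1.37, exact permutation p = 0.071, adjusted p = 0.33). In cRGCs this difference with age was -1.14 (exact permutation p = 0.67, adjusted p = 0.83). None of the 10 two-sided ratio tests passed the adjustment.

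The other genes of the axonal cytoskeleton, from lists chosen with earlier results known, were called less evenly. Of 3 other stathmins, Stmn3 was higher in the GFP line ipRGCs (2.31, SE 0.61, adjusted p = 0.025) and none was called in the Cre line, where Stmn3 was at 1.65 (adjusted p = 0.17). Of 15 other microtubule-associated proteins none was called in the GFP line, where Map1a, which is close to Map1b in structure, was at 1.31 (adjusted p = 0.057). Map1a was the 1 of 15 called in the Cre line (1.62, SE 0.36, adjusted p = 0.015). Of 12 listed tubulins 2 were higher in the GFP line and 3 in the Cre line ipRGCs. The neuron-specific Tubb3 was at 389 against 23.2 CPM in the former (4.24, SE 0.66, adjusted p = 0.00010), while the latter held 286 against 62.6 CPM (2.80, adjusted p = 0.029). Tuba4a was at 4.08 and 2.32. Of 14 axonal motors and linkers 1 was called in the GFP line, the kinesin heavy chain Kif5a (777 against 180.3 CPM, 2.34, adjusted p = 0.0010), and 0 in the Cre line. Of 8 spectrin and ankyrin scaffold genes, Add2 (3.54, adjusted p = 0.0049) was called in the first line and Ank2 (1.75, adjusted p = 0.0084) in the second. Of 16 growth cone genes, Dpysl4 was lower in both lines (-3.10, adjusted p = 0.0023, and -1.66, adjusted p = 0.044), Gprin1 was higher in the Cre line (3.02, adjusted p = 0.044) and Dpysl2 was called in neither (0.60 and 0.69). Among the other intermediate filaments, the glial Vim was lower in both (-6.26 and -5.20) and Gfap in the Cre line (-4.29, adjusted p = 0.0082).

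At P5 the same lists held 4 called genes, which are Mtus2 among the microtubule-associated proteins (-1.35, adjusted p = 0.0027) and, of 4 other intermediate filaments, Synm (2.23, 214 against 44.2 CPM), Vim (1.20, adjusted p = 0.035) and Gfap (-3.35, adjusted p = 0.0032). No other stathmin, tubulin, growth cone, motor or scaffold gene was called at P5. With age, Dcx, a microtubule protein of migrating and newborn neurons, was lower in both populations (-4.86, adjusted p = 0.0028, in ipRGCs and -8.28, adjusted p = 7.9e-07, in cRGCs). Tuba1a was lower in both too (-2.07, adjusted p = 0.00097, and -2.47, adjusted p = 2.0e-05), as was Dpysl3 (-4.46, adjusted p = 0.0048, and -6.27). Of the 16 growth cone genes 2 were lower in adult ipRGCs and 8 in adult cRGCs. Of the 12 tubulins 2 were lower in ipRGCs and 5 in cRGCs, among them Tubb3 (-4.86, adjusted p = 1.1e-05). All 3 other stathmins were lower in cRGCs and none was called in ipRGCs. The motors Kif5a (-2.50, adjusted p = 0.00061) and Kif5c (-1.81, adjusted p = 0.0045) were the 2 of 14 lower in cRGCs, and none was called in ipRGCs.

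Over all 26 libraries on the joint scale, and among 10481 genes, the profile most like that of Nefl was that of Slc17a6, the vesicular glutamate transporter of ganglion cells (Pearson r = 0.95), followed by Rbms3 (0.91), Ywhag (0.90), Trim36 (0.89) and Rab6b (0.89). Gap43 was nearest to Rbpms, a marker of ganglion cells (0.93), Dner (0.92), Slc29a4 (0.88), Baalc (0.88) and Srsf12 (0.88). Sncg was nearest to Usp29 (0.93), Ndufb8 (0.88), Thsd7b (0.88), Rprm (0.88) and Epha6 (0.88). The libraries share groups, ages and scaling, so these values are a description.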

How the data were processed

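Single-end RNA-seq of 26 sorted pools was aligned by the authors with TopHat2 to the mouse genome mm9 and counted per gene with HTSeq. Reads were clipped and quality filtered first, and their versions were not stated in the sources read. The authors scaled libraries with edgeR, and genes under 1 CPM in most libraries of a comparison were left out, so that low genes are missing from some tables. The values deposited by the authors are a signal, namely CPM of the scaled library size, made separately for each of the 3 sets of libraries. In these, 100% of values gave whole reads within 0.01, and edgeR's quasi-likelihood test on those reads called 242 genes higher and 288 lower in ipRGCs at P5, 74 and 230 in the GFP line, and 115 and 315 in the Cre line. Deposited columns of fold changes and p-values from the authors' own comparisons were not used. The read record holds 2 entries of no sample used here.

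Populations were compared within a set with limma 3.58.1 (trend) on log2(CPM + 1) in R 4.3.3. Ages and lines were compared on recovered reads scaled together with edgeR 4.0.16. DESeq2 1.42.0 was an alternative, as were a pseudocount of 0.25, a filter at a mean of 5 CPM, no scaling factors, scaling to summed ganglion cell markers, the pool number as a block and leaving out libraries. Leaving out the 6 libraries with over 1000 listed genes at 0 was chosen after seeing the data. Fits were tested on simulated data. Ratios added 1 read to each gene and were tested by exact permutation in Python 3.11.15 with scipy 1.17.1. Counting intervals cover counting error only, as reads carry no molecular identifiers.

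The study's methods say that both populations were sorted from the same pool of mice, and the replicate numbers in the labels were taken to mark these pools. Deviations of same-numbered libraries from their group means correlated across genes at 0.13, 0.18 and 0.32 at P5, between 0.016 and 0.13 in the GFP line and between 0.052 and 0.27 in the Cre line. Of 1911 blank symbols, 1885 were filled from the mm9 annotation. The 10 genes and the lists were chosen with earlier results of these data known. All 10 were named wherever listed. From each list, up to 3 called genes with the smallest adjusted p and up to 2 uncalled genes with the highest mean could be named per comparison. Likeness was computed over genes listed throughout with a mean of at least 5 CPM. One further list of related genes is not reported here.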

Additional observations from a re-analysis of the deposited data

Results flagged for a closer look

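Each gene was checked in each adult group of 4 to 6 libraries, on CPM, for a library far from the rest. This was so in 9 of 38 such combinations, and 7 of the 9 are among the 6 libraries with over 1000 listed genes at 0. The combinations share the same libraries and are not independent, so their number cannot be set against a chance rate. In adult Opn4-GFP, ipRGC pool 4 held 2147 CPM of Nefl (next library 949.7), 1853 CPM of Ina (next 727) and 1174 CPM of Stmn2 (next 567), and ipRGC pool 2 held 615 CPM of Nefm (next 358). Among the cRGC libraries of that line, pool 4 held 1269 CPM of Ina (next 265) and 905 CPM of Mapt (next 390.1), and pool 2 held 1184 CPM of Gap43 (next 67.6). In adult Opn4-Cre/GFP, Nefm was low in ipRGC pool 3 (281 CPM, next 502) and high in cRGC pool 2 (252 CPM, next 79.4). Sncg differed between the ages in its ipRGC minus cRGC difference, by 5.15 on the log2 scale (limma interaction, adjusted p = 0.015).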

How the results depend on the processing

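The cause of the changes below was not tested. The pool number as a replicate block made 1 of the 10 genes called at P5 (Nefh) and 4 in the interaction with age, against 0 and 1 without it, called Ina in the GFP line, and changed no other call of a member. No member call in the GFP line was lost on leaving out any 1 library. Genes called in the GFP line (597) were 304 with edgeR's quasi-likelihood test, 2678 relative to ganglion cell markers, 798 without libraries with over 1000 listed genes at 0 and 201 without single-run libraries. In the Cre line (727) they were 1152 with DESeq2, 430 with the quasi-likelihood test, 4492 relative to ganglion cell markers, and 419 (without ipRGC pool 1) to 892 on leaving out 1 library. For maturation of ipRGCs (128) they were 316 with DESeq2, 84 with the quasi-likelihood test, 205 with only both groups compared, 417 without the zero-rich libraries (over 1000 listed genes at 0), 85 without single-run libraries, and 34 (without P5 ipRGC pool 3) to 207 (without adult cRGC pool 4) on leaving out 1. For cRGCs (697) they were 1082, 414, 2569 relative to ganglion cell markers, 1590 without zero-rich libraries, and 361 (without P5 cRGC pool 1) to 834. For the interaction (89) they were 153 with DESeq2, 33 with the quasi-likelihood test, 53 with a pseudocount of 0.25, 620 relative to ganglion cell markers, 291 without zero-rich and 28 without single-run libraries, and 27 (without P5 ipRGC pool 3) to 126. Between lines (0 and 0) DESeq2 called 13 and 6, and the fit of the ipRGC groups alone called 1.

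Members called at P5 were 1 with DESeq2 and relative to ganglion cell markers. In the GFP line (5) they were 1 relative to ganglion cell markers, 8 without zero-rich and 3 without single-run libraries, and in the Cre line (8) 4 relative to ganglion cell markers. For maturation of ipRGCs (0) they were 1 without TMM scaling, 2 with only both groups compared, 1 relative to ganglion cell markers, 3 without zero-rich libraries, and 0 to 2 (without adult cRGC pool 4) on leaving out 1, and for cRGCs (8) 4 relative to ganglion cell markers. For the interaction (1) they were 2 with DESeq2, 0 with the quasi-likelihood test, 4 without TMM scaling, 0 relative to ganglion cell markers, 6 without zero-rich libraries and 0 to 5 (without adult cRGC pool 4) on leaving out 1.

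Signs turned as follows, for values that were not called unless named above. Relative to ganglion cell markers, P5 Nefl was 0.13 and Sncg 0.024, the GFP line Ina -0.18 and Mapt -0.84, the Cre line Ina -0.0060, Mapt -1.17 and Nefh -0.53, maturation of cRGC Nefh 1.22, and the interaction Ina -0.16, Map1b -0.33, Mapt -1.25 and Nefh -0.53. Between lines by this scaling, Map1b was 0.065 and Nefl 0.13 in ipRGCs and Gap43 0.033 in the difference. DESeq2 and the quasi-likelihood test gave Gap43 -0.10 and -0.10 in the GFP line and -0.10 and -0.10 in the interaction, Nefh 0.66 and 0.66 in maturation of cRGC, and Gap43 2.32 and 2.34 and Mapt 0.060 and 0.017 in the line difference. Without TMM scaling, P5 Gap43 was -0.070, Gap43 0.15 in the line difference, and Map1b 0.14, Mapt 0.068 and Nefl 0.21 between lines in ipRGCs. Without zero-rich libraries the line difference was 0.10 for Gap43, -0.11 for Ina, -0.16 for Nefl and -0.27 for Nefm, and in ipRGCs Map1b was 0.21, Nefl 0.13, Sncg -0.26 and Stmn2 0.032. Without single-run libraries, Gap43 was 0.23 and Mapt 0.10 in the line difference and Mapt 0.14 in ipRGCs.

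On leaving out 1 library, P5 Gap43 ranged from -0.094 to 0.11, P5 Nefl from -0.45 to 0.044 and Nefh in maturation of cRGC from -1.10 to 0.19. The line difference ranged from -0.99 to 0.97 for Gap43, -0.34 to 0.45 for Ina, -0.060 to 0.62 for Map1b and -0.070 to 0.68 for Nefm. In ipRGCs between lines Map1b ranged from -0.11 to 0.065, Mapt from -0.21 to 0.0063, Nefh from -0.13 to 0.27, Nefl from -0.21 to 0.26 and Sncg from -0.16 to 0.64. The Gap43 to Nefl ratio in the GFP line was 0.0043 with 0.5 reads added and ranged from -1.53 to 1.02, its maturation in cRGC from -2.19 to 0.36, and the Nefh to Nefl ratio in the GFP line from -1.10 to 0.79.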
